A study of Homo sapiens with 36 samples.

Results

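The 10 long noncoding RNAs MALAT1, NEAT1, MIAT, RMST, DANCR, GAS5, TUNAR, ESRG, LINC00461 and LINC01551 were followed through neuron induction in human H9 embryonic stem cells with and without intact RAI1. They were chosen by gene symbol, as RNAs that are abundant in the nucleus or linked to neural or pluripotent cells, and they are 10 of the 62710 genes in the deposited count table. RAI1 is a chromatin-binding protein, and haploinsufficiency of its gene underlies Smith-Magenis syndrome. Every group was made from H9, an established stem cell line, with doxycycline-dependent expression of NGN2, the neuron-inducing transcription factor encoded by NEUROG2. Cells labelled WT, HET (heterozygous RAI1 mutant) and KO (RAI1 knockout) were collected on days 0, 3 and 7 of induction. Each of the 9 groups had 4 libraries that the labels call biological replicates, 36 in all, and no group lacked the NGN2 system. Stem cells were kept in mTeSR Plus on Geltrex with a ROCK inhibitor at plating, and neurons in Neurobasal-A medium with B27, GDNF, NT3 and CultureOne. Whether HET and KO are each a single clone is not given in the sources used here, so a difference between clones and an effect of the RAI1 genotype cannot be told apart.

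Long noncoding RNAs are transcripts that mostly act as RNA and not through a protein. MALAT1 gathers in nuclear speckles, where splicing factors are stored, and NEAT1 is the RNA on which paraspeckles are built. MIAT is a nuclear RNA of neurons and the retina that binds splicing regulators such as QKI and SF1, and RMST binds SOX2 and takes part in neurogenesis. DANCR and GAS5 are spliced hosts whose introns release small nucleolar RNAs (snoRNAs). TUNAR is bound by PTBP1, HNRNPK and NCL in stem cells, ESRG marks human pluripotent cells, and LINC00461 is the host of the neural microRNA miR-9.

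In the GENCODE 29 annotation of GRCh38, NEAT1 (chr11:65422774-65445540) and MALAT1 (chr11:65497688-65506516) lie on the plus strand of chromosome 11 with 52148 bases between them. RMST (chr12:97430884-97598415), MIAT (chr22:26646428-26676475), DANCR (chr4:52712404-52720351), TUNAR (chr14:95876392-95925571) and LINC01551 (chr14:28772704-28813453) are also on plus strands. GAS5 (chr1:173863900-173868882), ESRG (chr3:54632122-54639857) and LINC00461 (chr5:88507546-88691041) are on minus strands. GENCODE lists TUNAR as protein-coding, since it holds a short open reading frame, and ESRG lies within CACNA2D3 on the other strand. Whether strand was used in counting is not given in the sources used here, so reads of a member and of an RNA on the opposite strand cannot be told apart. GAS5 overlaps the start of ZBTB37 in this way (146433 against 88914 counts over the 36 libraries), LINC00461 overlaps MEF2C-AS2 (3897 against 871), and ESRG lies in CACNA2D3 (49726 against 2650).

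The starts of 4 members that moved with genotype or day are shown because basic helix-loop-helix factors such as NGN2 bind E-boxes, whose general form is CANNTG. Sequences are from RefSeq on GRCh38.p14, 250 bases before to 50 after the RNA start, in the direction of the RNA, and capitals mark each CANNTG.
RMST, second start in RefSeq, chr12:97464843-97465142, plus strand: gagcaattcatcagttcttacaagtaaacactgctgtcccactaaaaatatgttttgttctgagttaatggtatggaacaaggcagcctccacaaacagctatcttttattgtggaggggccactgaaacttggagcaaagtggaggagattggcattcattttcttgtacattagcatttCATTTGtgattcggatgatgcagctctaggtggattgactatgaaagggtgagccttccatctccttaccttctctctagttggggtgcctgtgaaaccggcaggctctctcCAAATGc
TUNAR, first start in RefSeq, chr14:95876198-95876497, plus strand: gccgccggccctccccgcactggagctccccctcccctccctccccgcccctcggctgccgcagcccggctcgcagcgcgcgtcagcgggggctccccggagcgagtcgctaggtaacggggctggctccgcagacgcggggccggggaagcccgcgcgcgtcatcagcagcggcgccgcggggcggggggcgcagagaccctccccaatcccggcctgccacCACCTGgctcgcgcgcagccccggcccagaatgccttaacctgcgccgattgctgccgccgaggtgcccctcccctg
MIAT, chr22:26646179-26646478, plus strand: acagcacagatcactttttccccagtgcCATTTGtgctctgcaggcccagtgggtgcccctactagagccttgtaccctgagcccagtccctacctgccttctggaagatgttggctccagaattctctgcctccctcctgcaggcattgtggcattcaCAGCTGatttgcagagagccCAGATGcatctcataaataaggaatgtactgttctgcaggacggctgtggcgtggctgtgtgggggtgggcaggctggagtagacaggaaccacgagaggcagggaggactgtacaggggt
GAS5, chr1:173868996-173869295, minus strand: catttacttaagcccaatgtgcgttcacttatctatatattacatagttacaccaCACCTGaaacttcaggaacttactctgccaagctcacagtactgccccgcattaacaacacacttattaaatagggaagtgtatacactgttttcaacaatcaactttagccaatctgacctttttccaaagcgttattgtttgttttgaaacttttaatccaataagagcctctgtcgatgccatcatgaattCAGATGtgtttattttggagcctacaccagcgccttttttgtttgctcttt

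With the first base of the RNA as position 0, CANNTG began at -69 and 43 in RMST, at -27 in TUNAR, at -222, -91 and -71 in MIAT, and at -195 and -1 in GAS5. The other RMST start and those of DANCR and LINC01551 held 0 CANNTG, and the second TUNAR start and both of MALAT1 held 1 each. The form CAGATG, searched on both strands and contained in CANNTG, was at -71 in MIAT and at -1 in GAS5. CANNTG was found in 68.7% of 35116 RefSeq promoters of this length and CAGATG in 14.7%, so these matches are common and are given as a description. GAS5 is known as an RNA that starts with a pyrimidine tract. The RefSeq stretch printed for GAS5 lies wholly upstream of the GENCODE gene given above, so its CANNTG positions refer to the RefSeq start only. The GENCODE start was not examined, so the known tract was not checked. The RefSeq start of GAS5 began with a run of 0 pyrimidines, as did that of DANCR, while the second start of TUNAR began with 12 and that of RMST with 9. A run of at least 5 was found in 5.17% of promoters. RefSeq tables matched 7 of the 10 members for starts. Of the microRNAs encoded within LINC00461 and RMST, miR-9-5p and miR-1251-5p are printed with the seed (bases 2 to 8) in capitals. LINC00461 also holds miR-9-3p, and RMST holds miR-1251-3p and miR-135a-2-3p, which are not printed.
hsa-miR-9-5p, in LINC00461, chr5:88666902-88666924, minus strand: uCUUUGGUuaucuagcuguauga
hsa-miR-1251-5p, in RMST, chr12:97491913-97491933, plus strand: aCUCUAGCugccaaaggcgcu
The seeds differ, and the mature microRNAs themselves were not measured by these libraries.

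Libraries held 23.9 to 56.7 M counts, and 0 pairs of replicates held identical values. Levels are given as CPM (counts relative to the library total, scaled by the TMM factors of edgeR over the 36 libraries), and a gene is called changed where edgeR gave a Benjamini-Hochberg adjusted p under 0.05 over all genes tested. Levels of different genes are compared only as deposited TPM, which are per length. A group of 5 small structural RNAs, RMRP, RPPH1, RN7SK, RN7SL1 and RN7SL2, held 47.89% to 86.47% of the TPM of a library, so TPM of every other gene moves with them. RAI1 itself had mean CPM of 33.5, 38.4 and 37.0 in WT, HET and KO on day 0 and of 52.2, 73.2 and 84.9 on day 7, so its counts did not fall in HET or KO and do not check the genotype labels. The 6 pluripotency markers summed to 1887 to 3885 CPM on day 0, and the 7 neuron markers to 5281 to 13793 CPM on day 7. Of the mesoderm or endoderm markers, at least 3 of 5 were at or under 3 counts in every group from day 3 on, and the 4 fibroblast markers summed to 97.6 to 1059 CPM on day 0 and to 0.137 to 27.8 on day 7. In these bulk samples, fewer cells of a type and less of an RNA per cell cannot be told apart.

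**Figure D1:**
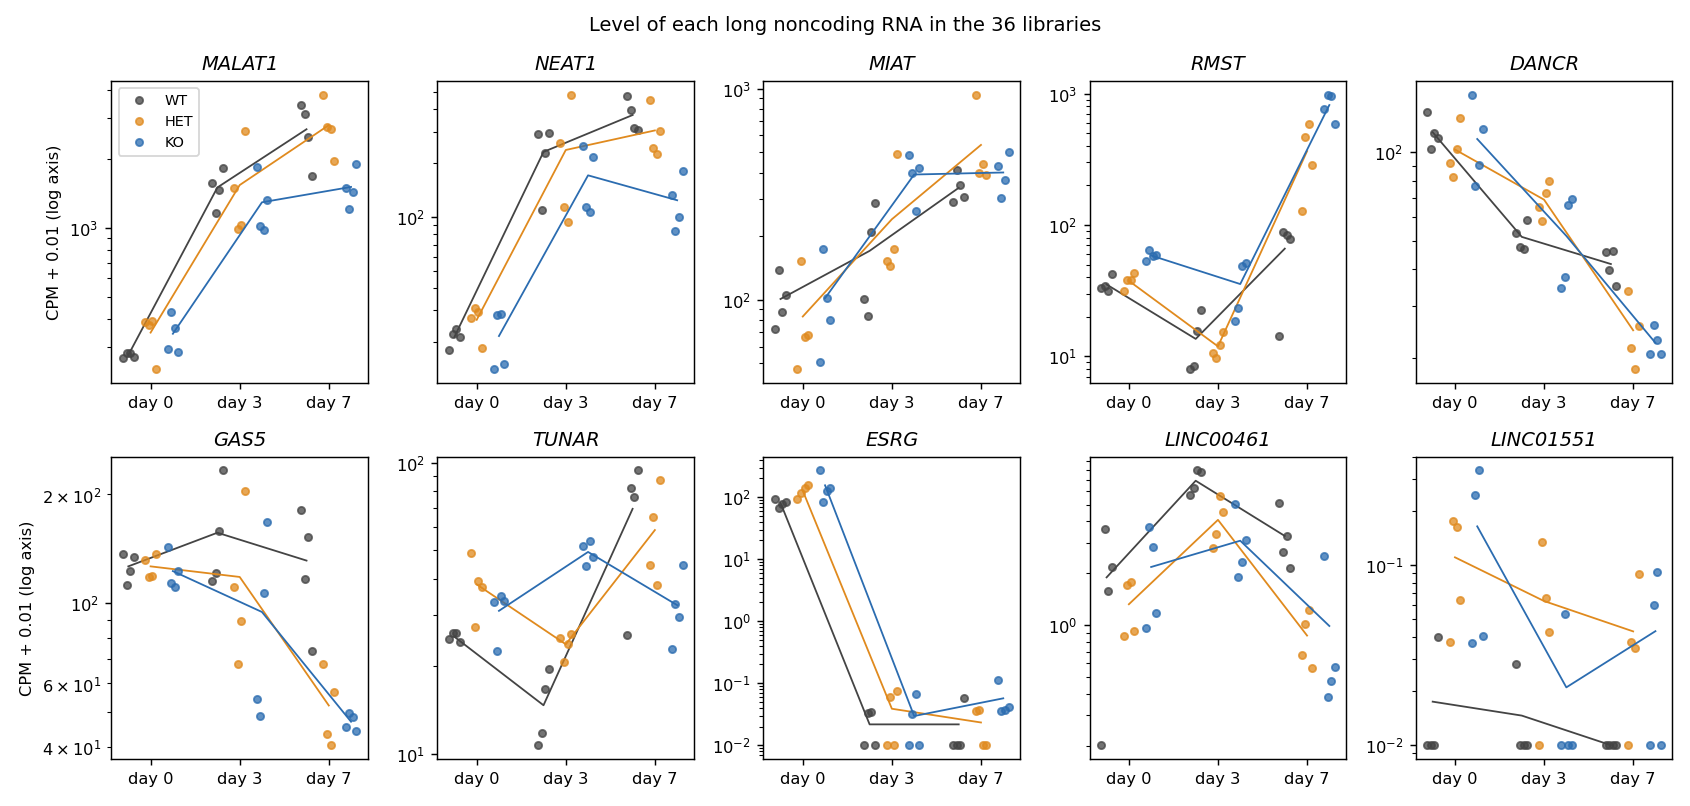
Level of each of the 10 long noncoding RNAs in CPM (plus 0.01, log axis) against the day of induction; points are the 36 libraries and lines join the group means of WT, HET and KO. MALAT1 and NEAT1 climb from day 0 in each genotype, RMST on day 7 reaches 584 to 981 CPM in KO against 14.3 to 87.9 in WT, and ESRG falls to 0.104 CPM or less after day 0.

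Per length, MALAT1 was the highest member in WT neurons. On day 7 its mean TPM in WT was 1153 ± 456 (SD, n = 4), against 77.3 ± 23.4 for GAS5, 19.1 ± 7.10 for MIAT, 15.4 ± 9.66 for RMST, 12.5 ± 2.40 for DANCR, 9.06 ± 3.24 for NEAT1, 7.42 ± 4.23 for TUNAR and 0.445 ± 0.124 for LINC00461. In KO on the same day RMST had a mean TPM of 280 ± 106, above GAS5 and second to MALAT1 among the members. On day 0 in WT the order was MALAT1 (281), GAS5 (128), DANCR (102), ESRG (21.5), RMST (17.1), MIAT (15.1), TUNAR (6.74) and NEAT1 (1.24).

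MALAT1 and NEAT1, the RNAs of the nuclear bodies, climbed together during WT induction and were lower in KO than in WT on day 7. In WT the 4 libraries held 270, 283, 284 and 273 CPM of MALAT1 on day 0, then 1559, 1164, 1454 and 1816 on day 3, and 3445, 3137, 2498 and 1681 on day 7. NEAT1 went from 18.1, 22.1, 23.7 and 21.3 CPM to 293, 109, 229 and 294 on day 3 and 474, 396, 313 and 305 on day 7. For both RNAs no WT library of day 3 overlapped those of day 0, and for NEAT1 the day 7 libraries were all above those of day 3. From day 0 to day 3 MALAT1 rose by a log2 change of 2.43 ± 0.21 (SE, adjusted p = 3.24e-07) and NEAT1 by 3.44 ± 0.28 (adjusted p = 1.56e-07) in edgeR. In WT at this step 7 of the 9 members tested were called, where 60.0% of all genes were called.

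From day 3 to day 7 in WT MALAT1 rose by a further 0.85 ± 0.20 (adjusted p = 0.00339) and NEAT1 by 0.69 ± 0.26 (adjusted p = 0.0398). At this step 5 of 9 members were called, all higher, against 46.2% of all genes (23.3% higher). The NEAT1 call was lost without WT day 3 replicate 2 or 3 or WT day 7 replicate 1 or 2 (log2 change 0.43 to 0.68, adjusted p 0.0699 to 0.1), and with the share of small structural RNAs as a covariate (0.49, adjusted p = 0.182). In KO, MALAT1 rose from day 0 to day 3 by 1.89 and NEAT1 by 2.97, while from day 3 to day 7 neither was called (0.26, adjusted p = 0.367, and -0.43, adjusted p = 0.314). Whether these later steps differ from WT was tested as an interaction over the 36 libraries: it was -0.63 ± 0.38 for MALAT1 (adjusted p = 0.282) and -1.15 ± 0.55 for NEAT1 (adjusted p = 0.153), and neither was called.

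On day 7 NEAT1 was at 133, 83.1, 100 and 180 CPM in KO and at 451, 242, 225 and 302 in HET. Every KO library was below every WT and every HET library, while HET and WT overlapped. KO was lower than WT by a log2 change of -1.59 ± 0.29 (adjusted p = 0.0013, 3.02-fold) and lower than HET by -1.29 ± 0.29 (adjusted p = 0.042). On log2(TPM + 1) neither was called (-0.56, adjusted p = 0.515, against WT and -1.12, adjusted p = 0.492, against HET). The difference from HET was the 1 call among 8 members in that comparison, where 1.40% of genes were called. It was lost without HET replicate 1 or 4 or KO replicate 1, 2 or 3 (-1.36 to -1.05, adjusted p 0.0669 to 0.168), and with all 36 libraries in one fit (adjusted p = 0.0558). HET did not pass against WT (-0.30 ± 0.28, adjusted p = 0.524).

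MALAT1 on day 7 was at 1496, 1210, 1430 and 1888 CPM in KO and at 3806, 2760, 2688 and 1962 in HET. KO overlapped WT, since WT replicate 4 held 1681 CPM, and did not overlap HET. KO was lower than WT by -0.85 ± 0.27 (adjusted p = 0.0285). This call was lost without WT replicate 1 or 2 or KO replicate 1, 2 or 3 (-0.88 to -0.70, adjusted p 0.0593 to 0.088), with small structural RNAs as a covariate (-0.67, adjusted p = 0.0758), on log2(FPKM + 1) (-0.77, adjusted p = 0.12) and on log2(TPM + 1) with small structural RNAs (-0.24, adjusted p = 0.803) or without them (-0.53, adjusted p = 0.3). Against HET the difference was -0.89 and was not called in edgeR with no added term (adjusted p = 0.154). It was called in DESeq2 (-0.89, adjusted p = 0.0326) and with small structural RNAs as a covariate (-0.89, adjusted p = 0.0413). HET against WT was 0.05 (adjusted p = 0.934).

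The MALAT1 counts do not hold all reads of its locus. TALAM1, the RNA of the opposite strand, was looked at after its values were seen: it took 4690769 counts against 1880503 for MALAT1, and MALAT1's share of the summed counts lay between 25% and 34.2% in the 36 libraries. How many TALAM1 counts are MALAT1 reads was not tested. With both genes summed, the locus held 10024 ± 2849 CPM in WT, 8856 ± 1575 in HET and 5703 ± 1356 in KO on day 7 (SD, n = 4). The summed locus gave a log2 change of -0.82 ± 0.27 for KO against WT (adjusted p = 0.0337) and 2.45 ± 0.24 from day 0 to day 3 in WT (adjusted p = 7.92e-07), so the calls held for the locus as a whole.

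Genes for the proteins of these bodies fell in WT while MALAT1 and NEAT1 rose. Of 12 paraspeckle protein genes 10 were called, all lower, on day 3 than on day 0 in WT, among them SFPQ (-1.71, adjusted p = 0.000134), TARDBP (-1.06) and EWSR1 (-0.89). Of 12 nuclear speckle protein genes 9 were called at that step, all lower, among them SRSF2 (-1.60), SRSF1 (-1.52), ACIN1 (-1.02) and SON (-0.98), where 28.7% of all genes were called lower and the median of all genes was 0.07. Against WT on day 7, KO was lower at 2 of 12 paraspeckle genes, NONO (-0.57) and DAZAP1 (-0.61), and higher at 0. Of all genes 32.6% were called and 15.6% were called lower, a share near that of the list. The median of the 12 was 0.19, against -0.04 over all genes.

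ESRG, an RNA of human pluripotent cells, was present on day 0 and nearly absent afterwards in every genotype. On day 0 it was at 94.5, 66.7, 78.5 and 84.1 CPM in WT, 94.2, 116, 138 and 158 in HET, and 269, 84.4, 126 and 141 in KO. The highest value was KO replicate 1, and the groups overlapped. KO against WT (0.96 ± 0.28, adjusted p = 0.123) and HET against WT (0.65 ± 0.28, adjusted p = 0.386) were not called in edgeR, and DESeq2 gave adjusted p = 0.0206 for KO. From day 3 on, a library held 0 to 4 ESRG counts. The ratio of the level on day 0 to that on day 3 was 7173 in WT (95% counting interval 1985 to 59240, from 12446 and 2 counts), 5239 in HET (2046 to 19230) and 8758 in KO (2996 to 42472). On day 7 the ratios were 6132 (1697 to 50641), 8940 (2474 to 73826) and 3372 (1636 to 8387), intervals that overlap. Single days after day 0 were not tested between genotypes for ESRG, and its interactions, which rest on these few counts, were not called (adjusted p 0.778 to 0.999).

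Other lncRNAs of pluripotent cells fell with it. Of 7 listed, 5 had counts enough to test in the WT series. All 5 were called lower on day 3 than on day 0, where 28.7% of all genes were called lower. Among them were LNCPRESS1 (7.13 against 0.0116 CPM) and LINC00678 (4.52 against 0.0281 CPM). The pluripotency marker sum was 204 to 326 CPM in WT on day 3 against 2321 to 2919 on day 0. LINC01551 stayed at the floor of counting, with 0 to 10 counts in a library and 53 in all. KO day 0 replicates 3 and 2 held 10 and 7 of them, WT day 7 held 0 in all 4 libraries, and LINC01551 was not tested in any comparison.

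GAS5 and DANCR, the snoRNA hosts, were lower than WT in both HET and KO on day 7. GAS5 held 181, 117, 153 and 74.0 CPM in WT, 68.0, 43.4, 40.5 and 56.7 in HET, and 45.6, 49.7, 48.4 and 44.4 in KO. Neither mutant group overlapped WT, and the 4 KO values lay closest together. GAS5 fell by 1.49 on the log2 scale in KO (SE 0.25, adjusted p = 0.000865) and by 1.34 in HET (SE 0.25, adjusted p = 0.00447). DANCR held 45.8, 39.8, 46.0 and 34.9 CPM in WT, 33.6, 21.6, 18.2 and 25.6 in HET, and 20.5, 25.7, 22.9 and 20.6 in KO, again with no overlap of WT with either mutant group. It differed from WT by -0.90 ± 0.19 in KO (adjusted p = 0.00325) and by -0.76 ± 0.19 in HET (adjusted p = 0.0179). The HET call of DANCR was lost without WT replicate 3 or HET replicate 2 or 3 (-0.72 to -0.63, adjusted p 0.0506 to 0.064). On the TPM scale, where the median of all genes moved by 0.46 in HET and 0.18 in KO, GAS5 and DANCR were called in neither mutant, and the DANCR change in HET was 0.15, the other direction (adjusted p = 0.769).

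Both hosts had different histories before day 7. DANCR, known for holding progenitors in an undifferentiated state, was at 137, 103, 116 and 112 CPM in WT on day 0 and at 53.1, 47.4, 46.8 and 58.7 on day 3. It fell without overlap, by 1.19 on the log2 scale (SE 0.14, adjusted p = 4.44e-06). From day 3 to day 7 the log2 change of DANCR was -1.17 in KO and -1.49 in HET, and -0.30 in WT (adjusted p = 0.0846), with interactions of -0.91 ± 0.30 for KO (adjusted p = 0.0333) and -1.18 ± 0.30 for HET (adjusted p = 0.0181). The WT libraries of these 2 days did not overlap. The WT fall was called in other settings, among them library size scaling (-0.41, adjusted p = 0.0285), log2(TPM + 1) (-0.82, adjusted p = 0.0138), log2(FPKM + 1) (-0.61, adjusted p = 0.000562) and small structural RNAs as a covariate (-0.4, adjusted p = 0.0479). The KO interaction was lost without WT day 3 replicate 1, 2 or 3, KO day 3 replicate 3 or 4, WT day 7 replicate 1 or 3, or KO day 7 replicate 1 or 4 (-0.87 to -0.74, adjusted p 0.0572 to 0.0892), and the HET interaction without HET day 7 replicate 3 (-1.05, adjusted p = 0.0598). The KO interaction was also lost on log2(TPM + 1) (-0.65, adjusted p = 0.679), on log2(FPKM + 1) (-0.65, adjusted p = 0.108) and with no filter (-0.90, adjusted p = 0.0506), and the HET interaction on log2(TPM + 1) (-0.67, adjusted p = 0.599). GAS5 in WT was at 137, 112, 123 and 134 CPM on day 0 and 115, 121, 158 and 233 on day 3. Neither WT step was called in edgeR with no added term (0.31, adjusted p = 0.322, and -0.25, adjusted p = 0.457). The first step was called on log2(FPKM + 1) (0.74, adjusted p = 0.0133). The second was called with small structural RNAs as a covariate (-0.7, adjusted p = 0.0208). GAS5 fell from day 3 to day 7 in HET (-1.21, adjusted p = 0.00731) and in KO (-0.97, adjusted p = 0.0191; without KO day 3 replicate 4, -0.53 and adjusted p = 0.0721), but its interactions with WT were not called (-0.94, adjusted p = 0.275, and -0.76, adjusted p = 0.263).

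On day 3 GAS5 in KO ran from 48.9 to 168 CPM across the 4 libraries, at 54.5, 48.9, 107 and 168. The WT libraries held 115, 121, 158 and 233, so in each numbered pair KO was lower. Without the replicate number KO was not called (-0.75 ± 0.43, adjusted p = 0.235), and with the number as a block, which pairs KO with WT on day 3, it was (-0.87, adjusted p = 0.00495).

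Of 15 further snoRNA hosts on day 7, 9 were called in KO against WT, all lower, with a median log2 change of -0.94 against -0.04 over all genes, where 15.6% of all genes were called lower. SNHG8 (-1.39, adjusted p = 0.0428), SNHG5 (-1.38, adjusted p = 0.000835), ZFAS1 (-1.34, adjusted p = 0.0211) and SNHG12 (-1.24, adjusted p = 0.0144) fell most. In HET 2 of 15 were lower, SNHG5 (-1.08, adjusted p = 0.00827) and SNHG16 (-0.66, adjusted p = 0.0471), with a median of -0.46 against 0.0 over all genes, and 6.10% of all genes were called lower. On day 3 KO was lower at 1 of the 15, SNHG17 (-0.59, adjusted p = 0.0247), where 8.93% of all genes were called lower. The median of the 15 was then -0.5 against -0.05 over all genes. The 4 dividing cell markers, which also fell with neuron formation, summed on day 7 to 27.2 to 177 CPM in WT, 9.18 to 20 in HET and 10.9 to 13 in KO, with 0 of 4 at the floor of 3 counts, and their part in the host gene differences was not tested. The genes whose course was most like that of GAS5 over the 36 libraries, among 14970 genes, were RPL10A (Pearson r 0.959), RPSA (0.954) and RPS12 (0.952), which encode ribosomal proteins. For DANCR they were HMGA1 (0.962), FGFR2 (0.96) and ZDHHC12 (0.959). These correlations are over libraries that share groups and scaling, and are given as a description.

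**Figure D2:**
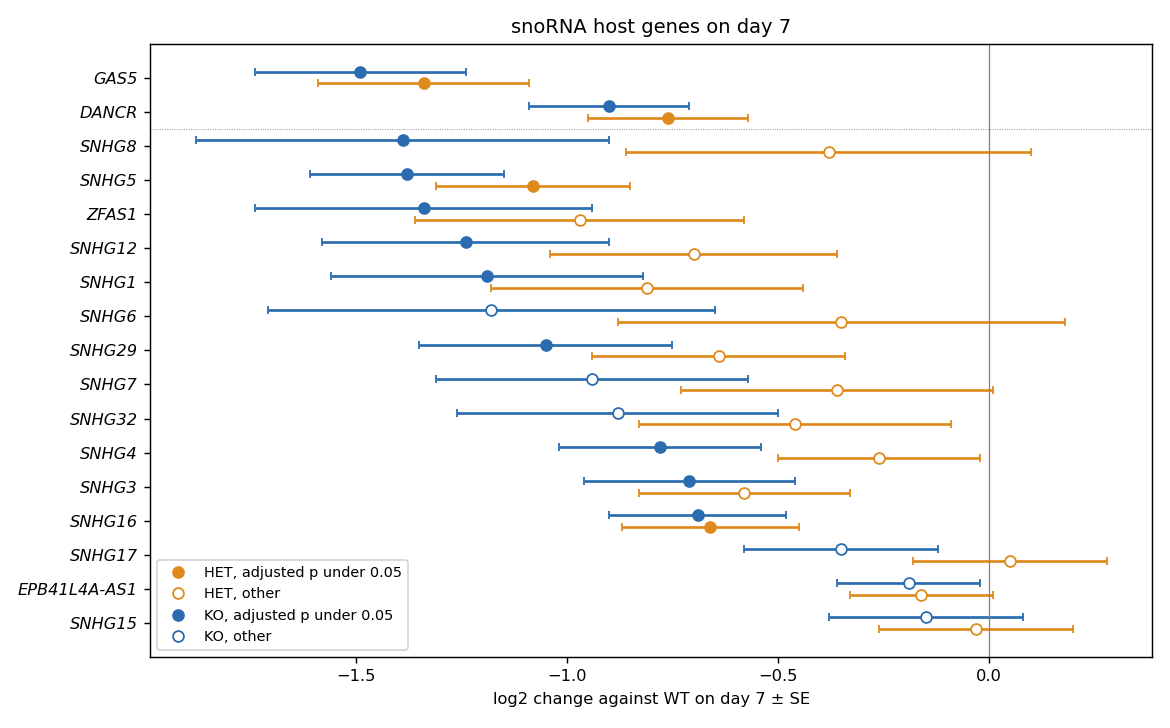
Log2 change on day 7 against WT (points, with SE) of GAS5, DANCR and 15 further snoRNA host genes in HET and KO; filled points had an adjusted p under 0.05. GAS5 (-1.49 in KO, -1.34 in HET) and DANCR (-0.90, -0.76) are filled in both mutants, and 9 of the other 15 hosts are filled in KO and 2 in HET, all to the left of 0.

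RMST was higher in KO than in WT on every day, and in HET on day 7. On day 7 it was at 14.3, 87.9, 84.5 and 77.7 CPM in WT, 127, 466, 583 and 285 in HET, and 760, 981, 952 and 584 in KO. HET lay above WT without overlap on the CPM scale, and the highest HET library (583) and the lowest KO library (584) were level. KO was higher than WT by a log2 change of 3.63 ± 0.55 (adjusted p = 0.000452, 12.4-fold), and HET by 2.46 ± 0.52 (adjusted p = 0.00826, 5.49-fold). KO against HET was not called (1.17 ± 0.50, adjusted p = 0.327), and was with small structural RNAs as a covariate (1.37, adjusted p = 0.0321). On day 7 RMST in KO and in HET passed against WT in every other setting tried and without any 1 library. In the TPM of the same day RMST was at 3.0, 26.54, 15.18 and 16.77 in WT, 19.96, 396.22, 416.91 and 81.35 in HET, and 221.29, 375.05, 362.91 and 160.13 in KO. On that scale HET overlapped both KO and, through its replicate 1, WT, while KO and WT did not overlap.

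A single WT library stood apart on day 7. WT replicate 1 held 14.3 CPM of RMST against 77.7 to 87.9 in the other 3, and it also had the lowest neuron marker sum (5281 CPM, others 8810 to 11112) and the highest sum of 4 dividing cell markers (177 CPM, others 27.2 to 84.4). Without it RMST was higher by 3.29 in KO (adjusted p = 0.000371) and by 2.12 in HET (adjusted p = 0.00834). HET replicate 1, the lowest HET library for RMST, had the highest neuron marker sum of HET on that day (12808 CPM). It also had the highest share of small structural RNAs of all libraries (27.474% of counts). The neuron marker sums of day 7 were 10136 to 12808 CPM in HET, 10780 to 13793 in KO and 5281 to 11112 in WT, ranges that overlap, with 0 of the 7 markers at the floor of 3 counts. The 5 neural progenitor markers summed to 766 to 882 CPM in WT, 551 to 1066 in HET and 452 to 534 in KO, and the 6 pluripotency markers to 66.9 to 73.0, 80.3 to 154 and 230 to 313. Of the pluripotency markers, NANOG and TDGF1 were at the floor of 3 counts in WT, TDGF1 in HET, and POU5F1 and TDGF1 in KO. SOX2, also on that list, was lower in KO than in WT, so the higher KO sum does not hold for each marker. The part of these markers in the RMST difference was not tested.

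**Figure D3:**
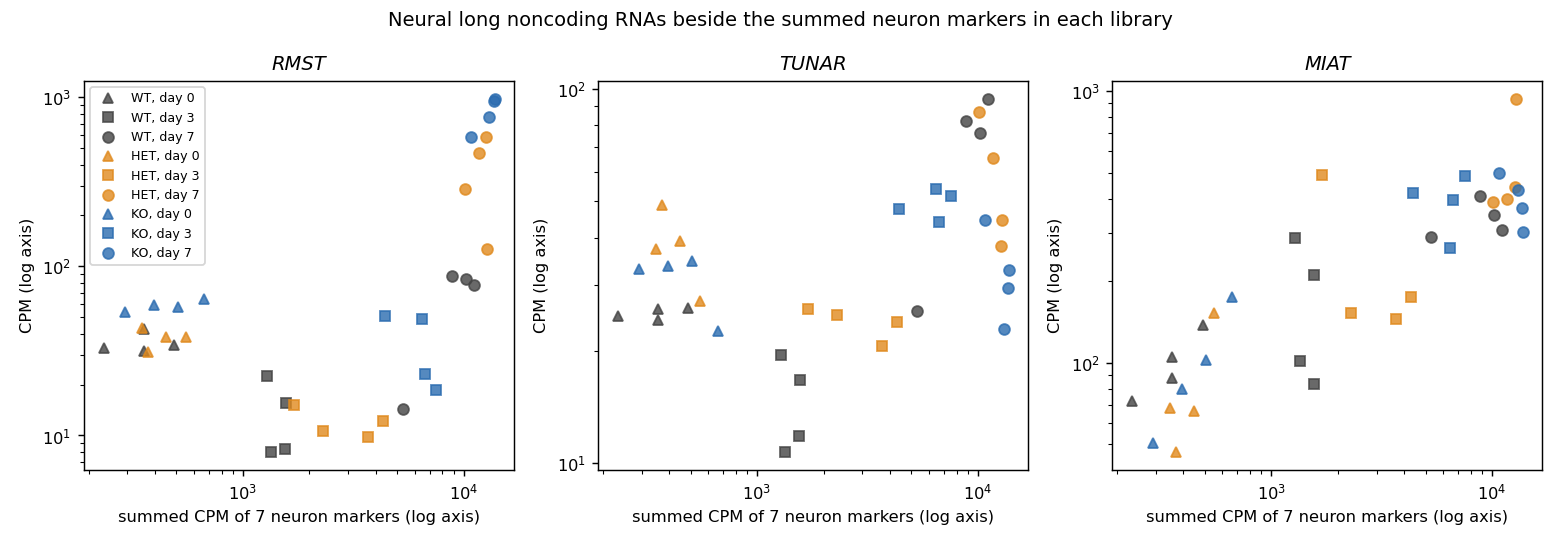
CPM of RMST, TUNAR and MIAT in each of the 36 libraries against the summed CPM of 7 neuron markers (both log axes); colour gives the genotype and shape the day. On day 7 KO libraries hold 584 to 981 CPM of RMST at marker sums of 10780 to 13793, WT replicate 1 sits low at 14.3 CPM and 5281, and TUNAR on day 3 is at 44.2 to 54.0 CPM in KO against 10.7 to 19.5 in WT.

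The difference in RMST was already present before induction. On day 0 it was at 32.9, 34.1, 31.4 and 42.7 CPM in WT, 31.2, 38.0, 38.0 and 43.2 in HET, and 53.5, 64.1, 57.6 and 59.3 in KO. KO lay above all libraries of the other 2 genotypes, which overlapped each other. KO exceeded WT by 0.76 ± 0.11 (adjusted p = 0.00247) and HET by 0.66 ± 0.11 (adjusted p = 0.0116), the 1 call of 9 members in each comparison, where 2.08% (4.7% with the replicate number as a block) and 0.856% of genes were called. With all 36 libraries in one fit, whose spread includes the neurons, the same changes of 0.73 and 0.66 were not called (adjusted p = 0.85 and 1). KO against HET was also not called on the log2(TPM + 1) scale (0.60, adjusted p = 0.0562).

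RMST on day 3 was at 7.94, 8.37, 15.5 and 22.5 CPM in WT, 10.6, 9.73, 12.1 and 15.2 in HET, and 18.6, 23.2, 49.1 and 51.2 in KO. HET lay within the WT range, and KO overlapped WT through its replicate 1. KO was higher than WT by 1.36 ± 0.39 (adjusted p = 0.0237) and than HET by 1.53 ± 0.39 (adjusted p = 0.0428). The first was lost without WT replicate 1 or 2 or KO replicate 3 (1.17 to 1.19, adjusted p 0.0642 to 0.0714), and the second without HET replicate 1, 2 or 3 or KO replicate 3 or 4 (1.33 to 1.52, adjusted p 0.0666 to 0.131). In WT RMST fell from day 0 to day 3 (-1.38 ± 0.44, adjusted p = 0.0149; with small structural RNAs as a covariate -1.54, adjusted p = 0.111) and rose from day 3 to day 7 (2.28 ± 0.45, adjusted p = 0.000845). HET fell to day 3 as well (-1.64 ± 0.36, adjusted p = 0.00239), as did KO (-0.74 ± 0.29, adjusted p = 0.0426), whose call was lost without any 1 KO library of day 0, without KO day 3 replicate 1 or 2 (-0.79 to -0.53, adjusted p 0.0533 to 0.116) and with no filter (-0.67, adjusted p = 0.051). The rise to day 7 was 4.57 ± 0.34 in KO and 4.93 ± 0.42 in HET, and it exceeded that in WT by 2.25 ± 0.57 (adjusted p = 0.00496) and 2.65 ± 0.58 (adjusted p = 0.00497). The HET interaction was not called on the log2(TPM + 1) scale (3.09, adjusted p = 0.0664).

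SOX2, the protein partner of RMST and a stem and progenitor cell factor, ran the other way in KO on day 7. It was at 13.2 ± 4.69 CPM in WT and 3.42 ± 1.12 in KO on that day (SD, n = 4; log2 change -1.96, adjusted p = 0.000607). SOX2 was not called in HET on day 7, where RMST was higher. In KO on day 0, 0 of the 7 named protein partners of the members, SOX2 among them, were called. The coding neighbour NEDD1, a centrosome gene, was lower on day 7 in KO (-1.16, adjusted p = 0.00159) and in HET (-0.81, adjusted p = 0.0246). The genes whose course was most like that of RMST were HIVEP2 (r 0.963), RET (0.962) and LRRC4C (0.961), the last 2 encoding a receptor for GDNF family ligands and a synaptic adhesion protein.

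TUNAR was higher in KO on day 3 and lower in KO on day 7. On day 3 it was at 10.7, 11.8, 16.7 and 19.5 CPM in WT, 24.9, 20.6, 23.8 and 25.8 in HET, and 51.6, 44.2, 54.0 and 47.6 in KO. The 3 genotypes formed 3 ranges without overlap, in the order WT, HET, KO. KO exceeded WT by 1.73 ± 0.20 (adjusted p = 7.16e-05, 3.31-fold), a call that held in every other setting and without any 1 library, and exceeded HET by 1.01 ± 0.20 (adjusted p = 0.0128). HET was not called against WT (0.72 ± 0.20, adjusted p = 0.0702). It was called with the replicate number, which pairs HET with WT on day 3, as a block (0.74, adjusted p = 0.0144), with library size scaling (adjusted p = 0.049), in DESeq2 (adjusted p = 0.019), with small structural RNAs as a covariate (0.82, adjusted p = 0.014) and without WT replicate 4 (0.88, adjusted p = 0.0339). The neuron marker sums of day 3 ran in the same order, 1279 to 1570 CPM in WT, 1704 to 4316 in HET and 4405 to 7523 in KO, and their part in the TUNAR and MIAT values of that day was not tested. On the log2(TPM + 1) scale KO against HET was 1.08 (adjusted p = 0.5).

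On day 7 TUNAR in WT was at 25.5, 82.0, 76.1 and 94.0 CPM, in HET at 44.5, 65.3, 38.0 and 86.9, and in KO at 22.9, 32.8, 29.4 and 44.5. WT replicate 1, low for RMST too, was the library that overlapped KO. KO was lower than WT by -1.10 ± 0.36 (adjusted p = 0.0345), and by -1.37 without WT replicate 1. The call was lost without WT replicate 2, 3 or 4 or KO replicate 1, 2 or 3 (-1.09 to -0.92, adjusted p 0.073 to 0.0897) and on log2(FPKM + 1) (-0.89, adjusted p = 0.0946). It was also lost on log2(TPM + 1) with small structural RNAs (-0.38, adjusted p = 0.741) or without them (-0.68, adjusted p = 0.225). HET was not called against WT (-0.25, adjusted p = 0.704). The order of the genotypes was thus the reverse of that on day 3 for KO and WT.

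The course of TUNAR itself differed between KO and WT. In WT it fell from day 0 (24.8, 26.0, 25.9 and 24.2 CPM) to day 3 by 0.79 on the log2 scale (SE 0.30, adjusted p = 0.0369) and then rose by 2.24 ± 0.31 (adjusted p = 4.27e-05). In KO it rose from 33.1, 22.5, 34.7 and 33.6 CPM by 0.65 to day 3 (adjusted p = 0.00942) and fell by 0.57 to day 7 (adjusted p = 0.0251). The interactions were 1.45 ± 0.39 for the first step (adjusted p = 0.0162) and -2.85 ± 0.39 for the second (adjusted p = 2.9e-06). The first step in WT was the less certain, since its call was lost without any 1 WT library of day 0 or without WT day 3 replicate 1, 2 or 3 (-0.86 to -0.66, adjusted p 0.0503 to 0.0983) and with small structural RNAs as a covariate (-0.70, adjusted p = 0.267). The KO fall was lost without KO day 3 replicate 1 or KO day 7 replicate 1 or 3 (-0.54 to -0.43, adjusted p 0.0503 to 0.0779), and the first interaction on the log2(TPM + 1) scale (1.62, adjusted p = 0.234). On that scale the KO rise (0.19, adjusted p = 0.721) and the KO fall (-0.86, adjusted p = 0.107) were not called either.

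In HET, TUNAR was at 49.0, 27.2, 39.1 and 37.4 CPM on day 0. All 4 values were above those of WT, but the difference was not called in edgeR (0.60 ± 0.16, adjusted p = 0.0998). HET fell to day 3 (-0.67 ± 0.25, adjusted p = 0.0401) and rose to day 7 (1.29 ± 0.25, adjusted p = 0.00117). The fall was lost without HET day 0 replicate 1, 3 or 4 or HET day 3 replicate 1, 2 or 3 (-0.67 to -0.52, adjusted p 0.0743 to 0.135), with no filter (adjusted p = 0.0729) and with small structural RNAs as a covariate (adjusted p = 0.0537). The interactions of HET with WT were 0.12 (adjusted p = 0.999) and -0.94 (adjusted p = 0.189), and the second was called without WT day 7 replicate 1 (-1.21, adjusted p = 0.0261). PTBP1, a TUNAR-binding splicing repressor that is shut down in neurons, was lower than WT (120 ± 9.41 CPM, SD, n = 4) on day 7 in KO (48.8 ± 6.02, log2 change -1.30, adjusted p = 0.000365) and in HET (68.6 ± 19.0, -0.81, adjusted p = 0.0126). HNRNPK and NCL, the other 2 named partners of TUNAR, were not called in either. The genes most like TUNAR in course reached only r 0.858 (NTSR1), 0.846 (HCG22) and 0.828 (ZNF765).

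MIAT had a higher mean level on day 7 than on day 0 in each genotype, and no difference between genotypes was called on any day in edgeR's fit of the 12 libraries of that day with its default filter and no added term. On day 3 it was at 101, 83.3, 210 and 287 CPM in WT, 152, 145, 174 and 491 in HET, and 486, 397, 263 and 421 in KO. All KO libraries but replicate 3 lay above all WT libraries, and HET replicate 4 stood apart from the other 3 of HET. KO against WT was 1.18 ± 0.46 (adjusted p = 0.0878). It was called in other fits, among them DESeq2 (1.21, adjusted p = 0.0405), edgeR with all 36 libraries in one fit (1.19, adjusted p = 0.0344), with small structural RNAs as a covariate (1.62, adjusted p = 0.024), with the replicate number as a block (1.37, adjusted p = 0.00708) and without WT replicate 4 (1.56, adjusted p = 0.0423). On day 7 MIAT was at 289, 411, 348 and 307 CPM in WT, 935, 399, 441 and 389 in HET, and 432, 302, 369 and 499 in KO, overlapping throughout. HET against WT was 0.67 ± 0.28 (adjusted p = 0.131; 0.88 and 0.0256 with small structural RNAs as a covariate) and KO against WT 0.24 ± 0.28 (adjusted p = 0.543).

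Over time MIAT in WT was at 72.4, 138, 87.6 and 105 CPM on day 0. The step to day 3 was not called (0.76, adjusted p = 0.0584) and the step to day 7 was (0.99 ± 0.33, adjusted p = 0.0228). The latter was lost without WT day 3 replicate 1 or 2 or WT day 7 replicate 2 (0.74 to 0.88, adjusted p 0.0633 to 0.0745) and with small structural RNAs as a covariate (0.76, adjusted p = 0.0675). In KO the rise came by day 3 (1.92, adjusted p = 0.000149) with 0.07 afterwards (adjusted p = 0.868), and the interactions with WT were not called (1.18, adjusted p = 0.234, and -0.96, adjusted p = 0.292). Of the MIAT-binding proteins, QKI was lower on day 7 in KO (-2.14, adjusted p = 7.79e-05) and HET (-1.34, adjusted p = 0.0033), CELF3, a neuronal splicing factor, was higher in KO (0.78, adjusted p = 0.0112), and SF1 was not called in either. USP35 (r 0.928), JUN (0.923) and POU3F1 (0.914) followed MIAT most closely over the 36 libraries.

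LINC00461 was low throughout, peaked on day 3 in WT and was lower in both mutants on day 7. In WT it was at 0.191, 3.61, 1.56 and 2.17 CPM on day 0, 5.66, 6.21, 7.89 and 7.75 on day 3, and 5.08, 2.65, 3.26 and 2.14 on day 7. It rose without overlap from day 0 to day 3 (1.86 ± 0.52, adjusted p = 0.00664; with small structural RNAs as a covariate 1.24, adjusted p = 0.137), and its later decline was not called (-1.06, adjusted p = 0.102). On day 3 KO held 5.01, 1.90, 2.31 and 3.10 CPM, all below WT. That difference was -1.17 ± 0.32 (adjusted p = 0.0191), and was lost without WT replicate 3 or KO replicate 2 or 3 (-1.08 to -0.98, adjusted p 0.0549 to 0.0601), and with all 36 libraries in one fit (-1.16, adjusted p = 0.112). It was also lost on log2(TPM + 1) with small structural RNAs (-0.26, adjusted p = 0.539) or without them (-0.67, adjusted p = 0.0852).

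On day 7 LINC00461 was at 0.663, 1.01, 1.21 and 0.556 CPM in HET and at 2.51, 0.374, 0.465 and 0.565 in KO. HET did not overlap WT, and KO did through its replicate 1, which stood apart from the other 3. The log2 change was -1.93 ± 0.56 in HET (adjusted p = 0.0352) and -1.76 ± 0.55 in KO (adjusted p = 0.0278). Both calls were lost when single libraries were left out: HET without WT replicate 1, 2 or 3 or HET replicate 2, 3 or 4 (-2.13 to -1.63, adjusted p 0.0552 to 0.1), and KO without WT replicate 1 or 3 or KO replicate 2, 3 or 4 (-1.77 to -1.45, adjusted p 0.0508 to 0.083). Both were also lost with small structural RNAs as a covariate (adjusted p = 0.109 and 0.06). On log2(TPM + 1) neither HET (-0.17, adjusted p = 0.289) nor KO (-0.32, adjusted p = 0.182) was called. The coding neighbour TMEM161B was lower in KO on day 7 (-1.02, adjusted p = 0.00412), and MEF2C, a neuronal transcription factor on its other side, was higher in KO on day 3 (1.04, adjusted p = 0.0143). Genes most like LINC00461 in course were FAM89A (r 0.813), FRA10AC1 (0.787) and KCNE5 (0.784).

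**Figure D4:**
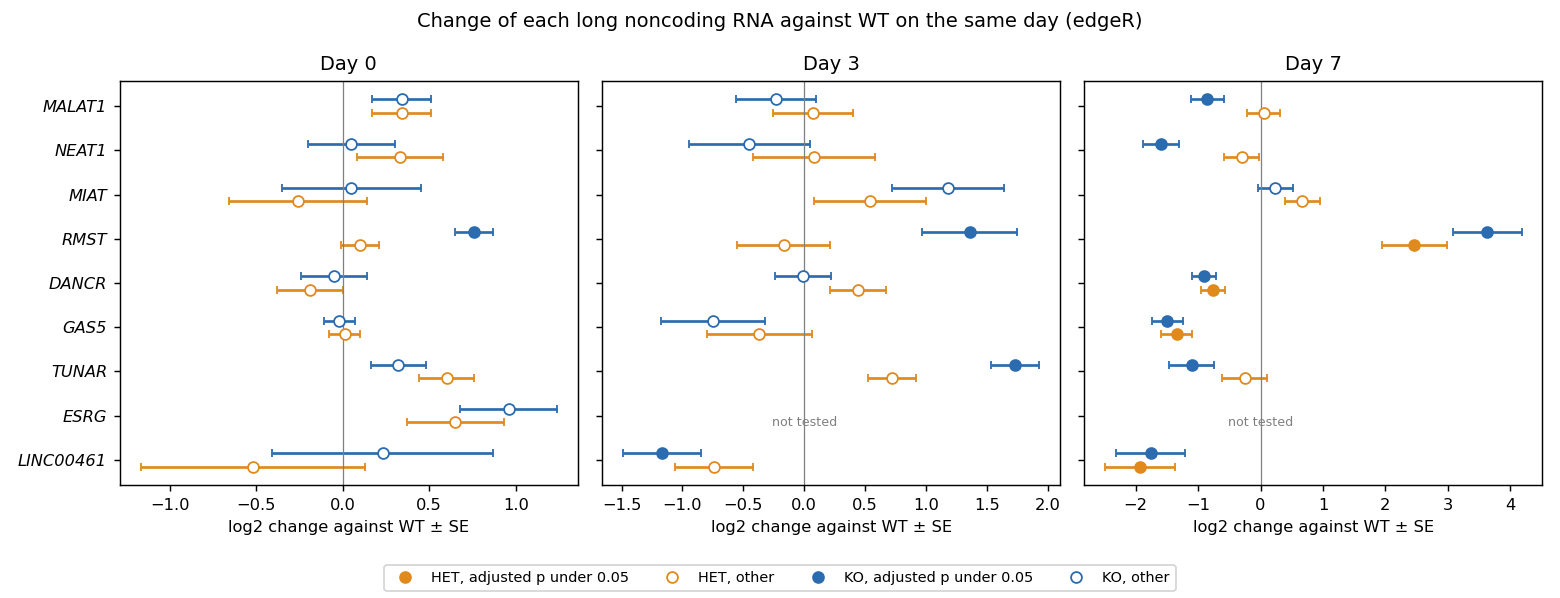
Log2 change against WT (points, with SE) of 9 members on days 0, 3 and 7 in HET and KO; filled points had an adjusted p under 0.05 in edgeR and ESRG was not tested after day 0. RMST reaches 3.63 in KO and 2.46 in HET on day 7, TUNAR goes from 1.73 on day 3 to -1.10 on day 7 in KO, and NEAT1, DANCR, GAS5 and LINC00461 lie below 0 in KO on day 7.

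Counted together, 7 of the 8 members tested differed between KO and WT on day 7, 1 higher and 6 lower, where 32.6% of all genes were called (17% higher, 15.6% lower). Their median log2 change was -1.0 against -0.04 over all genes. Groups did not overlap for 4 of the 8 (NEAT1, RMST, DANCR and GAS5), and did not for 39.8% of all genes. Without a single library the count was 4 to 6, and on the log2(TPM + 1) scale it was 1, RMST, where 4.64% of all genes were called. Removing the 5 small structural RNAs from the TPM left 5 members called. HET differed from WT at 4 of 8 members on day 7, 1 higher and 3 lower, against 14.4% of all genes (8.31% higher, 6.10% lower), and groups did not overlap for those 4 (14.9% of all genes). Without 1 library this count was 2 to 4, and on the log2(TPM + 1) scale 1.

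On day 3, 3 of 8 members differed between KO and WT, RMST and TUNAR higher and LINC00461 lower, where 21.6% of all genes were called (12.6% higher, 8.93% lower). With the replicate number as a block it was 5 of 8, adding MIAT and GAS5, where 37.7% of genes were called. Groups did not overlap for TUNAR and LINC00461, against 24.9% of all genes. KO against HET on day 3 had 2 of 8 called (4.35% of genes). For HET against WT 0 of 8 were called in edgeR on day 3, where 3.28% of genes were called, with 2 (TUNAR and LINC00461) at an unadjusted p under 0.05 and 1 (TUNAR) called by DESeq2 and 1 by the block (8.79% of genes). On day 0 the HET count was 0 of 9 in edgeR, where 1.63% of genes were called, with TUNAR and ESRG at an unadjusted p under 0.05 and TUNAR called by DESeq2. On each day, KO and HET were set against the same WT libraries.

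Tested as interactions over the 36 libraries, 1 of 9 members was called for KO from day 0 to day 3 (TUNAR, 8.55% of genes called) and 3 from day 3 to day 7 (RMST, DANCR and TUNAR, 18.5%). For HET 0 were called at the first step in edgeR and in DESeq2 (0.271% of genes, with DANCR at an unadjusted p under 0.05) and 2 at the second (RMST and DANCR, 4.74%). Within genotypes, 7 of 9 members were called from day 0 to day 3 in KO and 8 of 9 in HET, against 59.3% and 48.3% of genes, and 5 of 9 in each from day 3 to day 7, against 47.8% and 41.2%.

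Among the members, MALAT1 and NEAT1 followed each other most closely over the 36 libraries (r 0.97), and MALAT1 and ESRG ran opposite (-0.92). MALAT1 was followed by TALAM1 (r 0.991), WSB1 (0.968) and ABCC8 (0.963), NEAT1 by TALAM1 (0.974), ZNF333 (0.968) and TRPM4 (0.958), and ESRG by LNCPRESS1 (0.998), NANOG (0.998) and TDGF1 (0.996). RMST ran against GAS5 (-0.66) and DANCR (-0.61). These correlations are over the same 9 groups, and the parts of day and genotype in them were not tested.

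Of 16 other neural lncRNAs listed, 13 were tested on day 7, and KO was higher at 4 and lower at 1, where 32.6% of all genes were called: LINC00632, the locus of the circular RNA CDR1as, was at 1580 ± 545 CPM in KO against 572 ± 144 in WT (1.45, adjusted p = 0.0146), and MIR100HG (2.65), EPHA5-AS1 (2.23) and MIR124-2HG (1.02) were higher while MIR9-3HG was lower (-1.46, adjusted p = 0.0352). On day 3 KO was higher at 4 of 12, MIR137HG (3.52), MIR124-2HG (3.51), PANTR1 (2.19) and MIR9-3HG (1.04), and lower at CRNDE (-0.88), where 21.6% of all genes were called. HET on day 7 was higher at 2 of 13, CRNDE (1.05) and MIR124-2HG (0.94), where 14.4% of all genes were called. MIR9-3HG, like LINC00461 a host of miR-9, thus went from higher in KO on day 3 to lower on day 7, while LINC00461 was lower on both days in edgeR. Both of these LINC00461 calls were lost on log2(TPM + 1). Of 11 coding neighbours of the members tested on day 7, KO was higher at CACNA2D3 (2.31) and lower at 4, PRKD1 (-1.5), NEDD1, TMEM161B and LTBP3 (-0.97), and HET was called at 3 of them, CACNA2D3 (2.54), PRKD1 (-1.24) and NEDD1 (-0.81), beside the same 32.6% and 14.4% of all genes. CACNA2D3, which spans ESRG on the opposite strand, had 6.18 ± 1.17 CPM in KO and 1.25 ± 0.722 in WT on day 7, when ESRG was nearly absent.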

How the data were processed

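Total RNA was measured in 36 libraries after ribosomal RNA depletion (NEBNext kits, paired-end reads). Per the submitters' processing notes, reads were handled with cutadapt 4.8, FastQC 0.11.8, MultiQC 1.20, STAR 2.7.8a and RSEM 1.3.3 on GRCh38; the gene annotation and the use of strand are not given in the sources used here. The authors deposited expected counts, which are whole numbers in this table, and TPM and FPKM per gene. Each sample was grouped by its label for genotype and day.

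Expected counts of 62710 genes (4 reporter features left out) were tested with edgeR 4.0.16 (R 4.3.3): TMM factors, its default expression filter and quasi-likelihood F tests, with Benjamini-Hochberg adjustment over all genes tested and a threshold of 0.05. A genotype comparison was fitted on the 12 libraries of its day, a time comparison the 12 libraries of a genotype, and interactions all 36. Standard errors are the log2 change divided by the square root of F. The script was tested on simulated data. Totals of 23.9 to 56.7 M counts set the precision, and counting intervals cover counting error only. Nothing says that replicates came from separate cultures beyond the label biological replicate, so p-values measure the spread between these samples. Deposited TPM and FPKM were tested on log2 scales with limma 3.58.1 as alternatives, since both move with the small structural RNAs; DESeq2 1.42.0, other scalings, no filter, a covariate, a replicate block, one fit of all libraries and leaving out each library were the others.

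Same-numbered libraries deviated together, with all 4 correlations over 0.1, for KO and WT on day 0 (0.29 to 0.695), KO and WT on day 3 (0.128 to 0.588) and HET and WT on day 3 (0.165 to 0.796), and not in the other genotype comparisons. Named non-member genes are called genes of the lists, largest changes first, the members' partners and neighbours, and for each member the 3 genes of highest Pearson r of log2(CPM + 1). Members and lists were chosen with earlier results of these data known. The log2(FPKM + 1) scale and the summed MALAT1 and TALAM1 counts were added after seeing the data.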

Additional observations from a re-analysis of the deposited data

Results flagged for a closer look

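In 75 groups of 4 libraries with a mean of at least 10 counts, 6 held a library whose gap to the others passed the 95% critical value of Dixon's test, where chance gives about 1 in 20, or 3.75. RMST in WT on day 7 was at 14.3 CPM in replicate 1 against 77.7 to 87.9 in the other 3. MIAT in HET was at 491 CPM in replicate 4 on day 3 (others 145 to 174) and at 935 CPM in replicate 1 on day 7 (others 389 to 441). MALAT1 in HET on day 0 was at 240 CPM in replicate 4 (others 374 to 389), TUNAR in KO on day 0 at 22.5 CPM in replicate 2 (others 33.1 to 34.7), and LINC00461 in KO on day 7 at 2.51 CPM in replicate 1 (others 0.374 to 0.565).

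Steps between days differed from WT, by the interaction term in edgeR, for 3 members. TUNAR differed in KO by 1.45 on the log2 scale from day 0 to day 3 and by -2.85 from day 3 to day 7. RMST differed from day 3 to day 7 by 2.25 in KO and 2.65 in HET, and DANCR by -0.91 in KO and -1.18 in HET. Without WT day 7 replicate 1 the RMST interactions were 1.92 and 2.32 and that of TUNAR in KO -3.12.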

How the results depend on the processing

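Of 62 called member changes, 23 were called in every alternative and without any 1 library, and 21 lost the call without at least 1 library. Calls lost by setting were 30 on log2(TPM + 1), 29 on log2(TPM + 0.1), 7 on log2(TPM + 1) without small structural RNAs, 11 with their share as a covariate, 4 each on log2(FPKM + 1), with no filter and with all 36 libraries in one fit, and 1 with library size scaling. DESeq2, its size factors, the replicate block and the summed MALAT1 and TALAM1 counts lost 0. The change of DANCR in HET on day 7 turned to 0.15 on both TPM scales; the cause was not tested. On log2(TPM + 1) the share of higher genes among those called went from 52.1% to 62.0% for KO and from 57.7% to 66.1% for HET on day 7 (69.9% without small structural RNAs), from 58.6% to 85.9% for KO on day 3, and from 52.0% to 14.7% for WT from day 0 to day 3. The share of genes called lay between 4.64% and 35.8% for KO and 1.25% and 34.6% (without HET replicate 1) for HET on day 7, 3.78% and 37.7% for KO and 0.181% and 8.79% for HET on day 3, over all alternatives.

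Members called for KO against WT on day 0 numbered 1, and 2 in DESeq2 and 0 with all 36 libraries. For HET on day 0 there were 0, and 1 in DESeq2 and with the replicate block. For KO against HET on day 0 there was 1, and 0 on the 3 TPM scales and with all 36 libraries. On day 3 KO had 3, and 5 with the replicate block; HET had 0, and 1 with library size scaling, DESeq2, the covariate or the replicate block; KO against HET had 2, and 0 on log2(TPM + 1) and log2(TPM + 0.1). On day 7 KO had 7 and HET 4, and 1 each on those 2 scales; KO against HET had 1, and 2 in DESeq2, 3 with the covariate, and 0 on the TPM and FPKM scales and with all 36 libraries. Over time, WT from day 0 to day 3 had 7, and 4 with the covariate; KO from day 3 to day 7 had 5, and 3 on log2(TPM + 1) with or without small structural RNAs; HET had 8 then 5, and 4 then 2 on log2(TPM + 1) and log2(TPM + 0.1). The first KO interaction had 1, and 0 on log2(TPM + 1) and log2(TPM + 0.1), 2 without small structural RNAs and 3 on FPKM; the second HET interaction had 2, and 0 on log2(TPM + 1) and log2(TPM + 0.1). The replicate block changed no other count by over 1.5 times.

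Without 1 library at a time, counts were 1 to 2, 0 to 1 and 1 to 1 on day 0 (KO and HET against WT, KO against HET), 1 to 4, 0 to 1 and 1 to 2 on day 3, and 4 to 6, 2 to 4 and 0 to 1 on day 7. Over time they were 6 to 7 and 3 to 5 in WT, 6 to 8 and 3 to 5 in KO, and 5 to 8 and 5 to 7 in HET, and for the interactions 1 to 1 and 2 to 3 in KO and 0 to 0 and 1 to 3 in HET. Depth limits LINC01551, and ESRG after day 0.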
